A study of Homo sapiens with 2 samples.

Results

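Vimentin, nestin, the nuclear lamins and the inner nuclear membrane proteins that hold the lamina were examined as a family of 10 genes: VIM, NES, LMNA, LMNB1, LMNB2, LBR, EMD, TMPO, LEMD3 and SUN1. They were found by Entrez gene identifier, and all 10 had a row in at least 1 of the tables, of 19052 genes in all. The family was chosen by function after read counts and FPKM values of these same libraries were known, so the differences below are a description and carry no test. RNA came from TSU-Pr1 cells, an established human bladder carcinoma line that the submitters also call K12, with stable expression of the epithelial transcription factor KLF5 according to the series title. The siCINP group was transfected with siRNA against CINP, whose product binds cyclin-dependent kinase 2, and the siCtrl group with a control siRNA. Both were grown with 8% serum and harvested at 48 h. Each group is 1 library of total RNA, and neither the siRNA sequences nor the origin of the KLF5-expressing cells as a clone or a pool is given in the sources used here.

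Intermediate filaments are ropes of coiled-coil proteins. Vimentin forms them in the cytoplasm of mesenchymal cells and of many cultured carcinoma cells, keratins form them in epithelial cells, and lamins form a related meshwork under the inner nuclear membrane. Lamins A and C are splice products of LMNA, while lamins B1 and B2 come from genes of their own. Integral membrane proteins tie this meshwork to the envelope and to chromatin, and SUN proteins reach across the space between the nuclear membranes to nesprins, which connect to the cytoskeleton in what is called the LINC complex.

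The siCINP library held 10314195 rounded reads over 18115 listed genes and the siCtrl library 10365289 over 17847. CINP itself had 53 reads in siCINP and 203 in siCtrl, 4.02-fold lower. Of the markers of the cell type, the simple-epithelium keratins KRT8 and KRT18 were abundant in both libraries (30507 and 29477 reads in siCINP, 29363 and 27036 in siCtrl). The urothelial marker UPK2 had 0 reads in both libraries, and EPCAM, GATA3, UPK1B and UPK3A had at most 19 reads in either. With 1 library per group nothing below has a replicate check. The intervals are exact 95% Clopper-Pearson intervals on the split of a gene's reads between the libraries, so they compare these libraries and cover counting error only. In bulk RNA, fewer cells that express a gene and less RNA per cell cannot be told apart.

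Of the 10 genes, 9 had 20 or more reads in at least 1 library and were compared, and NES was not. The siCINP library had at least 2-fold lower levels of LMNB1, VIM and SUN1, each with an interval that excluded 0. That is 3 of 9 members, where 1.41% of 13076 compared genes met the same rule. None of the 9 members was at least 2-fold higher, against 1.69% of all compared genes. Over all compared genes 184 were lower and 221 higher by this rule, or 149 lower and 296 higher when scaled to total counts. LBR, LEMD3, TMPO, LMNA and EMD were lower by less than 2-fold, and LMNB2 was higher. Intervals lay below 0 in 8 of 9 members and above 0 in 1, against 23.1% and 18.6% of all compared genes. These intervals narrow with depth, and the members are abundant: among the 5019 genes with a mean of 500 or more reads, 37.4% had an interval below 0 and 0.996% were at least 2-fold lower. The median log2 ratio of siCINP over siCtrl was -0.33 over the 9 members and -0.01 over all compared genes.

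**Figure D1:**
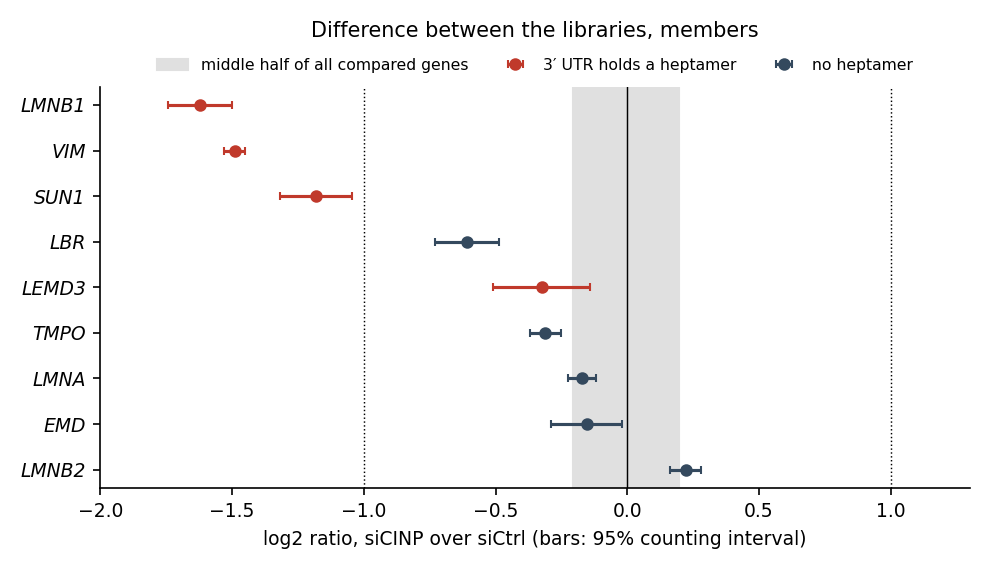
Log2 ratio of siCINP over siCtrl for each of the 9 compared members, with bars for the 95% counting interval, a grey band from the first to the third quartile of all compared genes, and dotted lines at 2-fold. LMNB1, VIM and SUN1 lie beyond 2-fold lower, and LMNB2 lies above 0. Red marks members whose annotated 3′ UTR holds TGCAAGA or GCAAGAA.

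A sequence in the 3′ untranslated region separated the members with the lowest ratios from most of the others. The heptamers TGCAAGA and GCAAGAA were singled out earlier in these same libraries because transcripts that carry them were lower in siCINP, so their presence here is a description and no independent evidence. They were searched on the sense strand of the longest annotated 3′ UTR of each gene, and overlapping matches, which these heptamers give when they stand together as an octamer, were counted once. VIM, LMNB1, SUN1 and LEMD3 hold at least 1 match. NES, LMNA, LMNB2, LBR, EMD and TMPO hold none. The sites were read from GENCODE 29 transcripts of the GRCh38 assembly and are given because the 3 members below the 2-fold line all have one. Each line runs 5′ to 3′ for 30 bases, with the heptamer in capitals.
VIM, chr10:17237296-17237325, plus strand: atatattaccaGCAAGAAtaaaaaagaaat
LMNB1, chr5:126836445-126836474, plus strand: atacactttgtTGCAAGAtgtgaattattg
SUN1, chr7:874753-874782, plus strand: atttttaaagaTGCAAGAtaggactttgtg
LEMD3, first site, chr12:65248017-65248046, plus strand: ttgtaacctgtTGCAAGAgtgaatgtaaaa
LEMD3, second site, chr12:65248195-65248224, plus strand: agatccctcccTGCAAGAcagatgggaatg

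The VIM match starts at base 36 of a 3′ UTR of 322 bases, and the LMNB1 match at base 192 of 756. Among compared genes with a 3′ UTR within 25% of the same length, 3.62% hold a heptamer for VIM and 7.84% for LMNB1. The SUN1 match starts at base 1433 of 1589 (14.2% at like length), and the LEMD3 matches start at bases 1703 and 1881 of 2002 (17.5% at like length). LEMD3 has a pair of matches and a log2 ratio of only -0.33, while LBR has none and stands at -0.61, so carriage of a heptamer did not order the members completely. Over all 11342 compared genes with an annotated 3′ UTR, 18.4% hold a heptamer; 3.50% of these carriers and 0.799% of the other genes were at least 2-fold lower. The part of the heptamers in the values of the members was not tested.

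Among the filament proteins, vimentin had the most reads of the family and the second lowest ratio. VIM had 7167 reads in siCINP and 19204 in siCtrl, which is 323 FPKM against 862 FPKM (reads scaled for gene length and library total). The level was 2.81-fold lower in siCINP, with the log2 ratio at -1.49 (interval -1.53 to -1.45). VIM held 0.0695% of all reads in siCINP and 0.185% in siCtrl, and it stood at the 99.2nd percentile of listed genes by FPKM in siCINP and the 99.6th in siCtrl. It was therefore still among the most abundant transcripts of the siCINP library. Its log2 ratio ranked 7th from the lowest of the 5019 genes with a mean of 500 or more reads. All expected counts of VIM were whole numbers, and the gene has 1 listed transcript with the same length of 2151 bases in both libraries, so no fractional assignment and no change of length entered this value.

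The antisense gene VIM-AS1 overlaps VIM, and it had 1624 reads in siCINP and 4560 in siCtrl, a log2 ratio of -1.56 (-1.64 to -1.48). The expected counts of VIM-AS1 were whole numbers too. Whether counting used the strand is not stated, so whether reads of the overlap were given to the right gene cannot be told. The sum of both genes was 8791 reads in siCINP and 23764 in siCtrl, a log2 ratio of -1.50. Vimentin is also made by fibroblasts, and a list of 7 fibroblast markers summed to 17.7 CPM (counts scaled to a common library total) in siCINP and 15.9 in siCtrl. Of this list, COL1A2, DCN and POSTN had 0 reads in both libraries, and COL3A1, LUM and PDGFRB had at most 14 in either. COL1A1, a collagen chain, had 168 reads in siCINP and 147 in siCtrl, with an interval that spanned 0 (-0.20 to 0.45). A part of fibroblasts in the value of VIM was not tested.

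NES encodes nestin, a filament protein of neural progenitors and some tumour cells that assembles together with vimentin. It had 4 reads in siCINP and 0 in siCtrl, where a count of 0 allows up to 3 reads or 0.297 CPM. Its level in siCINP was 0.07 FPKM, with a counting interval of 0.0191 to 0.179 FPKM. Nestin was thus at or near the limit of detection in both libraries, and at this depth a difference could not be detected. Most other non-keratin cytoplasmic filament genes also had few or no reads. Of 10 such genes, DES, NEFM, INA and BFSP2 had 0 reads in both libraries and GFAP, PRPH, NEFL and NEFH had at most 5 in either. BFSP1, a filament protein best known from the eye lens, had 83 reads in siCINP and 43 in siCtrl (log2 ratio 0.88, 0.33 to 1.45), and SYNM, which encodes the vimentin partner synemin, had 46 and 37 reads in siCINP and siCtrl, with an interval that spanned 0.

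**Figure D2:**
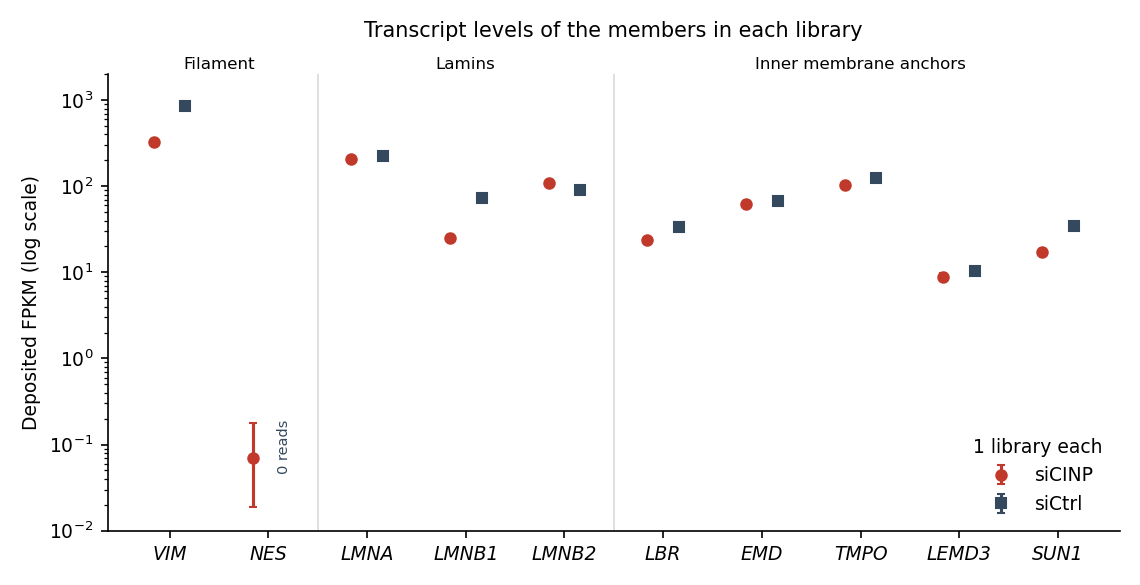
Deposited FPKM on a log axis for each member, with siCINP left of siCtrl, 1 library each, and bars for the 95% Poisson interval of the reads, which are smaller than most symbols. VIM is the most abundant member in both libraries, NES is near 0, and the gap between the libraries is widest for LMNB1 and VIM.

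Keratins shared the cytoplasm with vimentin, and their reads did not follow it. KRT8 had a log2 ratio of -0.01 (-0.04 to 0.01) and its partner KRT18 one of 0.06 (0.03 to 0.08). Vimentin therefore held 8.17% of the summed FPKM of VIM and the keratins in siCINP and 20.4% in siCtrl. The FPKM of VIM was 0.199 of that of KRT8 in siCINP and 0.555 of it in siCtrl. Of 8 compared keratins, 3 were at least 2-fold higher (KRT5, KRT17 and KRT19) and 0 lower, where 1.69% of all compared genes were higher. Intervals lay above 0 in 6 of the 8, against 18.6% of all compared genes. KRT5, a keratin of basal epithelial cells, had 75 reads in siCINP and 4 in siCtrl, and the stress-linked KRT17 had 190 in siCINP and 57 in siCtrl. KRT19, a keratin of simple epithelia, had 44 reads in siCINP and 20 in siCtrl (log2 ratio 1.07, 0.28 to 1.91). KRT7 was higher by less than 2-fold, with 297 reads in siCINP and 154 in siCtrl (0.88). All 8 compared keratins, KRT8 and KRT18 included, had fractional counts, so reads may be shared between related keratins, and the ratios and shares of vimentin against keratins carry this limit. CDH1, the gene of the epithelial adhesion protein E-cadherin, had 75 reads in siCINP and 46 in siCtrl (0.64, 0.09 to 1.20). Its 3′ UTR holds 1 heptamer match. Of the 10 urothelial and epithelial markers, 5 were compared and 4 had an interval above 0, the opposite direction to VIM, against 18.6% of all compared genes. KRT7, KRT18 and KRT19 are among these 4 and were already counted with the keratins. Summed levels of the markers were 5709 CPM in siCINP and 5611 CPM in siCtrl. Their part in the result for VIM was not tested.

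The lamins divided, with lamin B1 lower, lamin B2 higher and lamin A/C nearly level. LMNB1 had 740 reads in siCINP and 2171 in siCtrl, or 25.3 FPKM against 73.45 FPKM. It was 3.08-fold lower, with a log2 ratio of -1.62 (-1.74 to -1.50), the lowest of the family and 4th from the lowest among the 5019 genes with a mean of 500 or more reads. Its product, like lamin B2, stays attached to the inner membrane through a farnesyl group.

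LMNB2 encodes the other B-type lamin and was the single member higher in siCINP. It had 5320 reads in siCINP and 4352 in siCtrl, or 110 FPKM against 89.7 FPKM. The log2 ratio was 0.22 (0.16 to 0.28), a 1.17-fold higher level. LMNA, the gene of lamins A and C, had 5242 reads in siCINP and 5634 in siCtrl, or 205 FPKM against 223 FPKM. Its log2 ratio was -0.17 (-0.23 to -0.12), inside the quartiles of all compared genes (-0.21 and 0.20). The tables give 1 value per gene, so lamin A and lamin C were not separated. The deposited mean transcript length of LMNA was 2474 bases in siCINP and 2440 bases in siCtrl, over 7 listed transcripts.

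The make-up of the lamin pool differed mainly within the B type. LMNB1 took 7.43% of the summed lamin FPKM in siCINP and 19.0% in siCtrl. LMNB2 took 32.3% in siCINP and 23.2% in siCtrl, and LMNA took 60.2% in siCINP and 57.7% in siCtrl. As shares of lamin reads, which are not scaled for length, LMNB1 was at 6.55% in siCINP (exact binomial interval 6.10 to 7.02%) and 17.9% in siCtrl (17.2 to 18.6%). The FPKM of LMNB2 was 4.35 times that of LMNB1 in siCINP and 1.22 times that of LMNB1 in siCtrl. Summed over the 3 lamin genes the FPKM was 341 in siCINP and 386 in siCtrl, a smaller difference than that of LMNB1 alone. The reads of LMNB1 and LMNB2 together had a log2 ratio of -0.17 (-0.23 to -0.12), as the higher LMNB2 offset part of the lower LMNB1. That sum of reads gives more weight to the longer LMNB2. Per length, the FPKM of LMNB1 and LMNB2 summed to 135 in siCINP and 163 in siCtrl.

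**Figure D3:**
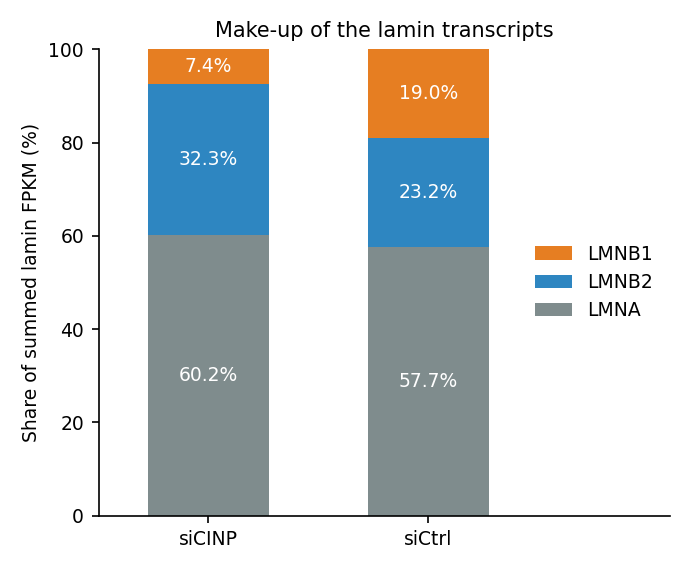
Share of each lamin gene in the summed FPKM of LMNA, LMNB1 and LMNB2, as stacked bars for siCINP and siCtrl, 1 library each. The LMNB1 segment is 7.43% in siCINP and 19.0% in siCtrl, and the LMNB2 segment is 32.3% in siCINP and 23.2% in siCtrl.

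Enzymes that mature prelamin A and the B-type lamins were near level or slightly higher. Of 5 listed, 0 passed the 2-fold rule, with 2 intervals above 0 and 0 below, and their median log2 ratio was 0.05. By the same rule 1.41% of all compared genes were lower and 1.69% higher, with 18.6% of intervals above 0 and 23.1% below. ICMT, the methyltransferase that acts after farnesylation, had 2042 reads in siCINP and 1504 in siCtrl (log2 ratio 0.37), with fractional counts. FNTA, the shared alpha subunit of farnesyltransferase, had 351 in siCINP and 281 in siCtrl (0.25). RCE1, which trims the farnesylated end, had 274 in siCINP and 299 in siCtrl, with an interval that spanned 0. ZMPSTE24, the protease of prelamin A, stood at -0.02 (-0.11 to 0.07).

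Among the membrane anchors, SUN1 had the lowest ratio. SUN1 had 639 reads in siCINP and 1381 in siCtrl, or 17.2 FPKM against 34.5 FPKM. It was 2.27-fold lower by reads, with a log2 ratio of -1.18 (-1.32 to -1.04). The deposited mean length over its 5 listed transcripts was 3590 bases in siCINP and 3838 bases in siCtrl. The FPKM, which is scaled by that length and by library total, differed less, by a log2 ratio of -1.01. Reads scaled to total counts, without length, gave -1.10, so both the length and the scaling entered the smaller FPKM difference. On the FPKM scale with a pseudocount of 1 SUN1 stood at -0.97 and no longer met the 2-fold rule, which left LMNB1 and VIM.

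LBR, the lamin B receptor, binds B-type lamins and heterochromatin protein 1 and is also a sterol reductase. It had 935 reads in siCINP and 1361 in siCtrl, or 23.5 FPKM against 34.0 FPKM. The log2 ratio was -0.61 (-0.73 to -0.49), 1.53-fold lower, the next member after SUN1 in the order of ratios. TM7SF2, which encodes a sterol reductase related to LBR, differed the other way, with 192 reads in siCINP and 116 in siCtrl (log2 ratio 0.66, 0.319 to 1.004).

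The LEM-domain proteins emerin, LAP2 and MAN1 bind the chromatin bridging protein BAF, and all were lower by less than 1.5-fold. TMPO, the gene of the LAP2 proteins, had 4351 reads in siCINP and 5147 in siCtrl, or 105 FPKM against 124 FPKM, with a log2 ratio of -0.31 (-0.37 to -0.25). Its expected counts were fractional, unlike those of the other 8 compared members, and TMPO-AS1, which overlaps it, had 247 reads in siCINP and 335 in siCtrl (log2 ratio -0.51). LEMD3, which encodes MAN1, an inner membrane protein that also binds SMAD proteins, had 441 reads in siCINP and 527 in siCtrl, or 8.84 FPKM against 10.5 FPKM, with a log2 ratio of -0.33 (-0.51 to -0.14). EMD, the gene of emerin, had 881 reads in siCINP and 935 in siCtrl, or 63.0 FPKM against 66.6 FPKM. Its log2 ratio of -0.15 (-0.29 to -0.02) depended on scaling: scaled to total counts it was -0.08 with an interval that spanned 0 (-0.21 to 0.06), and the interval also spanned 0 with upper quartile scaling and with DESeq2 size factors. BANF1, which encodes BAF, had 1726 reads in siCINP and 1761 in siCtrl.

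By level per length, the order of the members in siCINP was VIM, LMNA, LMNB2, TMPO, EMD, LMNB1, LBR, SUN1, LEMD3 and NES. In siCtrl it was VIM, LMNA, TMPO, LMNB2, LMNB1, EMD, SUN1, LBR and LEMD3, with NES at 0. LMNB1 and LBR did not differ beyond counting error in siCINP (ratio 1.08, interval 0.978 to 1.19), nor did SUN1 and LBR in siCtrl (1.01, 0.941 to 1.09). All other neighbours differed beyond counting error, which does not include the spread between cultures. LMNB1 thus stood below EMD in siCINP and above it in siCtrl, and LMNB2 stood above TMPO in siCINP and below it in siCtrl.

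**Figure D4:**
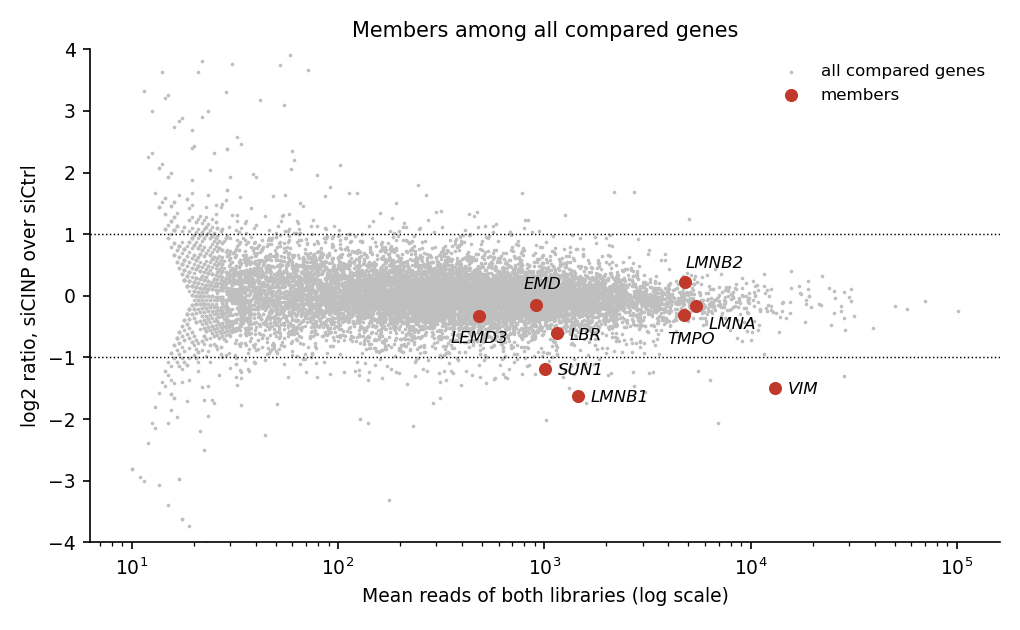
Log2 ratio of siCINP over siCtrl against the mean reads of both libraries (log axis) for all 13076 compared genes (grey) and the 9 compared members (red), with dotted lines at 2-fold. VIM, LMNB1 and SUN1 lie below the lower dotted line, as do 50 of the 5019 genes with a mean of 500 or more reads, these 3 included, and 14 compared genes fall outside the plotted range of 4 in either direction.

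The partners of these proteins were followed in 8 lists holding 90 genes, chosen with earlier results of these data known, of which 77 were compared. At the 2-fold rule 1 was lower and 4 were higher, where 1.41% and 1.69% of all compared genes were lower and higher. Of the 4 higher genes, 3 were the keratins with fractional counts described above. Intervals lay below 0 in 17 (22.1%), against 23.1% of all compared genes, and above 0 in 28 (36.4%), against 18.6%. Of these 28, 6 were keratins. The intervals narrow with depth, and many of these genes are deeply read. Among genes with a mean of 500 or more reads 37.4% of intervals lay below 0, and the share above 0 at that depth was not taken. The median log2 ratio was 0.02. The split depended on scaling, with 12 below and 35 above when scaled to total counts. Of the 77, 8 hold one of the heptamers, with a median log2 ratio of -0.31, and the others had a median of 0.05. Intervals of 6 of these 8 lay below 0, and those of the carriers POM121 and NUP107 lay above 0. Of all 2084 compared genes that hold a heptamer, 37.6% had an interval below 0. The heptamers were singled out in these same libraries for lower carriers, so these values are a description only.

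Among LINC complex and torsin genes, 8 of 11 were compared and none passed the 2-fold rule, with 3 intervals below 0 and 2 above. Of all compared genes 1.41% were lower and 1.69% higher by this rule, with 23.1% of intervals below 0 and 18.6% above. SUN2, which encodes the other widely expressed SUN protein, was lower as SUN1 was, with 613 reads in siCINP and 1042 in siCtrl (log2 ratio -0.83, -0.98 to -0.69), and its 3′ UTR holds 2 of the heptamer matches. SYNE1, the gene of nesprin-1, which SUN proteins anchor, was higher, with 1253 reads in siCINP and 816 in siCtrl (0.55, 0.42 to 0.68). SYNE2, the gene of nesprin-2, stood at -0.03 with an interval that spanned 0. TOR1B, a torsin ATPase of the envelope lumen, had 292 reads in siCINP and 430 in siCtrl (-0.63), with fractional counts.

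Of 13 other inner membrane proteins and chromatin tethers, 5 intervals lay below 0 and 4 above, with a median of -0.10 and none past 2-fold. The shares over all compared genes were 23.1% below and 18.6% above, with 1.41% lower and 1.69% higher by 2-fold. NEMP2, a nuclear envelope membrane protein, had 143 reads in siCINP and 250 in siCtrl (-0.87, -1.18 to -0.57) and holds 1 heptamer match. NRM, the gene of nurim, had 275 in siCINP and 383 in siCtrl (-0.55). The heterochromatin proteins CBX1 and CBX5, which bind LBR, stood at 0.17 and 0.11. CBX3, the related gene of the same list, stood at -0.01 with an interval that spanned 0 (-0.12 to 0.09).

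The 31 nucleoporins had a median of -0.01 (0.06 when scaled to total counts), with 1 higher by the 2-fold rule, 0 lower, 9 intervals above 0 and 5 below, where 1.69% of all compared genes were higher, 18.6% had an interval above 0 and 23.1% one below. GLE1, an mRNA export factor of the cytoplasmic face of the pore, had 927 reads in siCINP and 431 in siCtrl (log2 ratio 1.04, 0.87 to 1.20). POM121C, a copy of the membrane nucleoporin POM121 with fractional counts, stood at 0.56, and NUP50, of the nuclear basket, at -0.43. POM121, also with fractional counts, stood at 0.44 and NUP107 at 0.13, and both hold 1 heptamer match.

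Of 7 proteins that seal the envelope after mitosis, SPAST, a microtubule-severing ATPase, was 2.32-fold lower, with 260 reads in siCINP and 576 in siCtrl. SPAST alone passed the 2-fold rule, where 1.41% of all compared genes were lower. Its log2 ratio was -1.22 (-1.433 to -1.002), its counts were fractional and its 3′ UTR holds 2 heptamer matches. CHMP4B, a filament-forming ESCRT subunit, had 1900 reads in siCINP and 1386 in siCtrl (0.39), and VPS4B, the ATPase that disassembles those filaments, stood at -0.28 with fractional counts.

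The cytolinkers PLEC, MACF1 and DST encode large proteins that link parts of the cytoskeleton. PLEC, the gene of plectin, which binds vimentin and nesprin-3, was higher, with 13235 reads in siCINP and 9894 in siCtrl (0.35, 0.31 to 0.39) and fractional counts. MACF1 stood at -0.41 and DST at -0.12, and both hold 1 heptamer match.

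**Figure D5:**
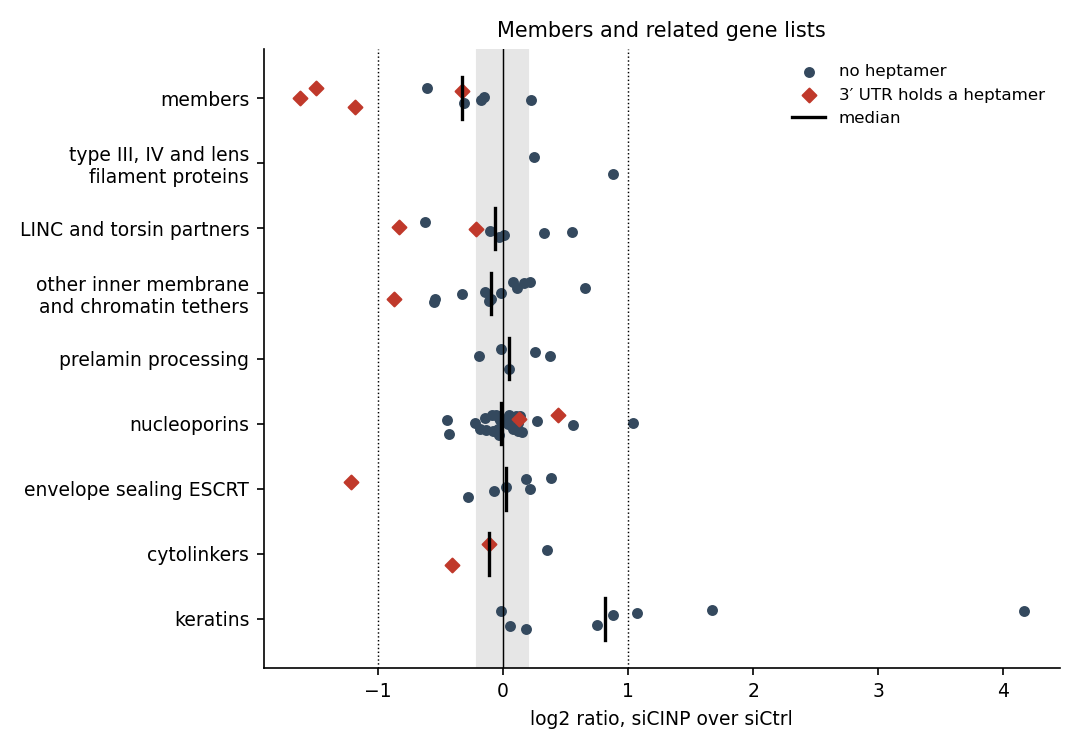
Log2 ratio of siCINP over siCtrl for each compared gene of the family and of 8 lists of related genes, 1 point per gene, with black bars for medians of 3 or more genes, a grey band between the quartiles of all compared genes and dotted lines at 2-fold. Red diamonds hold TGCAAGA or GCAAGAA in the 3′ UTR; the 3 lowest members and SPAST lie beyond the lower dotted line, while the keratins extend to the right.

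With 2 libraries, likeness between genes reduces to the distance between their log2 ratios. Among genes with whole counts and a mean of 500 or more reads, those nearest to VIM were LYPLA1 (711 reads in siCINP and 1915 in siCtrl, -1.50), EIF2S2 (1490 in siCINP and 3936 in siCtrl, -1.47) and the overlapping VIM-AS1. Nearest to LMNB1 were VIM-AS1, LYPLA1 and VIM. Nearest to SUN1 were SELENOT at -1.18, HIPK3 at -1.17 and FNDC3B at -1.20. LYPLA1, EIF2S2, SELENOT and HIPK3 hold a heptamer and FNDC3B does not. Of all compared genes with an annotated 3′ UTR 18.4% hold one, as do 73 of the 147 of them that were at least 2-fold lower. The genes were picked for low ratios and the heptamers for lower carriers in these same libraries, so the overlap is no independent evidence.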

How the data were processed

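Total RNA was sequenced on a BGISEQ-500, per the series' design text. The authors deposited 1 table per library with expected counts (estimated reads per gene, not normalised), FPKM values (scaled for length and library total) and a transcript length, per the file headers. Bowtie2, HISAT and hg19 are named in the submitters' processing notes, without versions. No source used here names the counting tool, the annotation release or the strandedness. A length that is a mean over transcripts changes FPKM when the transcript mix changes.

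Expected counts were rounded. Counts within 0.005 of a whole number were taken as whole, and fractional ones as a sign of shared reads. Of 19052 gene identifiers, 18971 matched a RefSeq symbol. Libraries were scaled with TMM in edgeR 4.0.16 under R 4.3.3 (factors 1.03 for siCINP, 0.974 for siCtrl). Log2 ratios are siCINP over siCtrl, with exact 95% intervals from scipy 1.17.1, for genes that reached 20 reads in either library; the size rule asks for 2-fold and an interval that excludes 0. This is no test of the conditions. The calculation was run on simulated counts with planted changes larger than 2-fold, scaled to library totals without TMM. These counts held counting error only, so they say nothing on spread between cultures or on ratios near 2-fold. A count of 0 stood at 3 reads. 3′ UTRs were the longest in the GENCODE 29 basic set (GRCh38), which differs from hg19, so coordinates are those of the reference.

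The members, lists, heptamers and settings were chosen with earlier results of these data known. Named genes are the 10 members, CINP, VIM-AS1, up to 3 genes per list with the greatest distance between 0 and the near end of the interval, and the 3 nearest in ratio to each member past 2-fold. DES, NEFM, INA, BFSP2, GFAP, PRPH, NEFL, NEFH, ZMPSTE24, BANF1, SYNE2, CBX1, CBX3, CBX5, POM121, NUP107, KRT8, KRT18, KRT19, CDH1, COL1A1, COL1A2, COL3A1, DCN, LUM, PDGFRB, POSTN, UPK2, EPCAM, GATA3, UPK1B, UPK3A and TMPO-AS1 were added after their values were seen. Marker lists of endothelium, leukocytes and red cells summed to 7.75, 8.69 and 0.189 CPM in siCINP and 4.75, 9.11 and 0.198 in siCtrl. Alternatives were total, upper quartile and DESeq2 1.42.0 scaling, FPKM with pseudocounts of 0.1 and 1, unrounded counts, other minimums of reads and other size rules.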

Additional observations from a re-analysis of the deposited data

How the results depend on the processing

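Across 55 alternative values of the 9 compared members, 40 were within the counting interval, 15 were outside, and 0 had the opposite sign. The 40 include unrounded counts, which by construction return the main value for the 8 compared members with whole counts. VIM stood at -1.41 with total-count scaling, -1.45 with upper quartile scaling, and -1.41 with FPKM and a pseudocount of 0.1 or 1. SUN1 stood at -1.003 and -0.97 with those pseudocounts of 0.1 and 1. LMNB1 lay between -1.60 and -1.50 in its alternatives other than unrounded counts. Total-count scaling raised every log2 ratio by 0.08. The median of the cytolinkers was -0.040 with total scaling, -0.043 and -0.040 with FPKM at pseudocounts of 0.1 and 1, and -0.0068 with no minimum of reads. Of 56 alternative medians of the related lists, 52 moved by less than the median half-width of the counting intervals of their genes. Among these 52, the median of the nucleoporins turned from -0.01 to 0.06 with total scaling and to 0.03 with upper quartile scaling, and that of LINC and torsin genes from -0.07 to 0.01 with total scaling. The list of type III, IV and lens filament proteins, with 2 compared genes, was given no median.

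The counts of lower and higher genes among all compared were 184 and 221, and by construction they moved to 638 and 662 with a 1.5-fold rule, 73 and 60 with an interval wholly beyond 2-fold, 98 and 62 with a minimum of 100 reads, and 72 and 83 with FPKM and a pseudocount of 1; with no minimum 339 were higher. In alternatives added after seeing the data, whole counts left 95 lower and 119 higher genes. Without heptamer carriers 111 lower genes and 0 lower members were left, as all 3 lower members carry one. The lamin A/C share was 46.4% of reads in siCINP and 46.3% in siCtrl, and the vimentin share 10.5% in siCINP and 25.2% in siCtrl, when not scaled for length. No paired analysis was possible because there is 1 library in each group, and no replicate could be left out.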

Other observations

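Over all compared genes with an annotated 3′ UTR, the median log2 ratio was 0.00 for the 9258 genes without TGCAAGA or GCAAGAA, -0.11 for the 1621 with 1 match and -0.13 for the 463 with 2 or more. The 231 carriers with a 3′ UTR of 1000 bases or less, among them VIM and LMNB1, had a median of -0.20, with 18 (7.79%) lower by the 2-fold rule. The heptamers were singled out on these libraries, so these values describe them and test nothing.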
